A study of Mus musculus with 2 samples.

Results

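A set of 10 genes that encode proteins of the lysosome were followed in long-read RNA-seq of the mouse adrenal gland: the proteases Ctsb, Ctsl, Ctsz, Lgmn and Ctsd, the glycosidase subunit Hexa, the saposin precursor Psap, and the membrane proteins Lamp1, Lamp2 and Cd63. They were chosen by gene name, and all transcript models carrying 1 of these 10 names were taken from the count tables, out of 16674 annotated genes with reads in the series. The tissue came from wild-type C57BL/6J mice and was sequenced as 2 biological replicates of 1 group, from different biosamples that share 1 donor record. The labels do not say whether the replicates came from different animals, so the SD of the 2 libraries may be technical spread alone. The descriptions name females, although the sex field was left as not collected, and the age is unknown. There is no other group, so the tests below set the reads of 1 library against those of the other and say nothing about conditions.

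Lysosomes are acidic compartments in which proteins, lipids and sugars are broken down. Their soluble enzymes are made as precursors, carried from the Golgi by mannose 6-phosphate receptors and activated in the acidic lumen, while heavily glycosylated membrane proteins line the compartment. In steroid-making cells lysosomes also release cholesterol from the lipoproteins that the cells take up, which supplies hormone synthesis.

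Replicate 1 held 810239 reads in 88152 transcript models and replicate 2 held 587861 reads in 92074 models. The most that a count of 0 allows, 3 reads, stood for 3.70 and 5.10 CPM, the counts of a gene scaled to a common library total, in these libraries. Adrenal markers were present in both: 10 of 10 cortex genes, which took 8.49% and 10.1% of reads in replicates 1 and 2, and 10 of 10 medulla genes, which took 0.937% and 1.01%. Across all genes, short transcripts were higher in replicate 1 and long ones in replicate 2, so the model length of each of the 10 genes is given beside its difference between the libraries. The 10 lysosomal genes took 6207 reads in 150 models in replicate 1 and 2925 reads in 143 models in replicate 2. That was 0.766% and 0.498% of all reads, a mean of 0.632 ± 0.190% (SD, n = 2).

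The sequences that the splicing results turn on are those of the protein tails. Lamp2 has alternative last exons, each of which encodes its own membrane span and cytosolic tail, so the last exon decides which LAMP2 protein is made. The coding part of each last exon is shown 5′ to 3′ on the minus strand of chromosome X, from the GENCODE M21 transcripts on mm10, with the final 5 codons before the stop codon in capitals. The exon of Lamp2-201, the A form, lies at chrX:38405062-38405571, that of Lamp2-202, the B form, at chrX:38419507-38421851, and that of Lamp2-203, the C form, at chrX:38401357-38402281.
Lamp2-201: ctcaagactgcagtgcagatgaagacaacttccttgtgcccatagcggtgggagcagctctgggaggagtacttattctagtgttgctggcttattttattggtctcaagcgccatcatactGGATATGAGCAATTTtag
Lamp2-202: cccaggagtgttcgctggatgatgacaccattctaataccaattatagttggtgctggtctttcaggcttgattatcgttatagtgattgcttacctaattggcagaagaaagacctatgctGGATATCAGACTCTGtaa
Lamp2-203: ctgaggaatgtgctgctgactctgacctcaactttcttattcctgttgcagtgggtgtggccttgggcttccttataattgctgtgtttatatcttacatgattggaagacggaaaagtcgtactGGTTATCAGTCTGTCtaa

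The ends of the coding sequences of Lamp1 (plus strand of chromosome 8, last exon at chr8:13174419-13175338) and Cd63 (plus strand of chromosome 10, last exon at chr10:128912675-128912815) are shown for comparison, 63 bases each, with the final 5 codons again in capitals.
Lamp1-201: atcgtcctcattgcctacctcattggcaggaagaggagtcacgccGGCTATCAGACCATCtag
Cd63-201: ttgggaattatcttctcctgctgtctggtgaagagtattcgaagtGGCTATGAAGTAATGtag

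In all 5 tails the second of the capital codons is TAT, a tyrosine codon, which belongs to the tyrosine-based signal that sends these proteins to lysosomes. Over the whole coding part, capitals included, the A exon was identical to the B exon in 56.7% of aligned columns and to the C exon in 55.9%, and the B and C exons were identical in 63.7%. The annotated proteins have 415, 415 and 416 residues for the A, B and C forms.

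The proteases are described first. Ctsb and the aspartic protease Ctsd had the highest mean levels of the 10 genes. By mean level, the other cysteine proteases, Ctsl, Ctsz and Lgmn, lay below Lamp1, Lamp2 and Psap. This order did not hold in replicate 1. There Psap (40.7 CPM) lay below Ctsl, Ctsz and Lgmn, and Ctsz and Lamp2 each had 348 CPM. A read comes from 1 cDNA molecule of any length, which may be an amplified copy, so levels were not divided by transcript length. The length trend between the libraries still bears on every level set side by side. Ctsb (ENSMUSG00000021939.8, chr14:63122462-63145923) encodes cathepsin B, a cysteine protease that cuts both within proteins and at their ends. It had 2915 reads in replicate 1 and 902 in replicate 2, or 3598 and 1534 CPM, with a mean of 2566 ± 1459 CPM. Ctsb was the 17th most read gene in replicate 1 and the 50th in replicate 2, the highest rank among the 10 in both.

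Ctsl (ENSMUSG00000021477.9, chr13:64359337-64370890), the cysteine endopeptidase cathepsin L, had 181 reads in replicate 1 and 36 in replicate 2. Ctsz (ENSMUSG00000016256.10, chr2:174427493-174439039), cathepsin Z, a cysteine protease that removes residues from the carboxyl end, had 282 and 32 reads. Lgmn (ENSMUSG00000021190.14, chr12:102394084-102439813) encodes legumain, which cuts after asparagine and helps to activate the cathepsins. Lgmn had 181 and 114 reads. The mean levels of these genes were 142 ± 115 CPM for Ctsl, 201 ± 208 CPM for Ctsz and 209 ± 20.8 CPM for Lgmn, so that the order of these 3 genes lies within the spread of the libraries.

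Ctsd (ENSMUSG00000007891.16, chr7:142375911-142388038), the aspartic protease cathepsin D, had 1325 reads in replicate 1 and 608 in replicate 2, or 1335 ± 425 CPM on average. It stood second to Ctsb in both libraries. Hexa (ENSMUSG00000025232.8, chr9:59539540-59565109), the alpha subunit of beta-hexosaminidase, which trims the ganglioside GM2, had 125 and 102 reads, or 164 ± 13.6 CPM. Psap (ENSMUSG00000004207.14, chr10:60277627-60302597) encodes prosaposin, which is cut into the saposins that present sphingolipids to their enzymes. Psap had 33 reads in replicate 1 and 369 in replicate 2, or 40.7 and 628 CPM. It was the only 1 of the 10 genes with more raw reads in replicate 2. In CPM, Lamp1 (721 in replicate 1 and 949 in replicate 2) and Hexa (154 and 174) were also higher in replicate 2.

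Of the membrane proteins, Lamp1 (ENSMUSG00000031447.7, chr8:13159161-13175338) had 584 reads in replicate 1 and 558 in replicate 2, with a mean of 835 ± 162 CPM. Lamp2 (ENSMUSG00000016534.15, chrX:38401357-38456454) had 282 and 194 reads, or 339 ± 12.8 CPM, the smallest spread of the 10 genes. Lamp1 and Lamp2 are the main glycoproteins of the lysosomal membrane. Cd63 (ENSMUSG00000025351.14, chr10:128900989-128912822), a tetraspanin of late endosomes, lysosomes and exosomes, had 299 reads in replicate 1 and 10 in replicate 2, or 369 and 17.01 CPM.

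**Figure D1:**
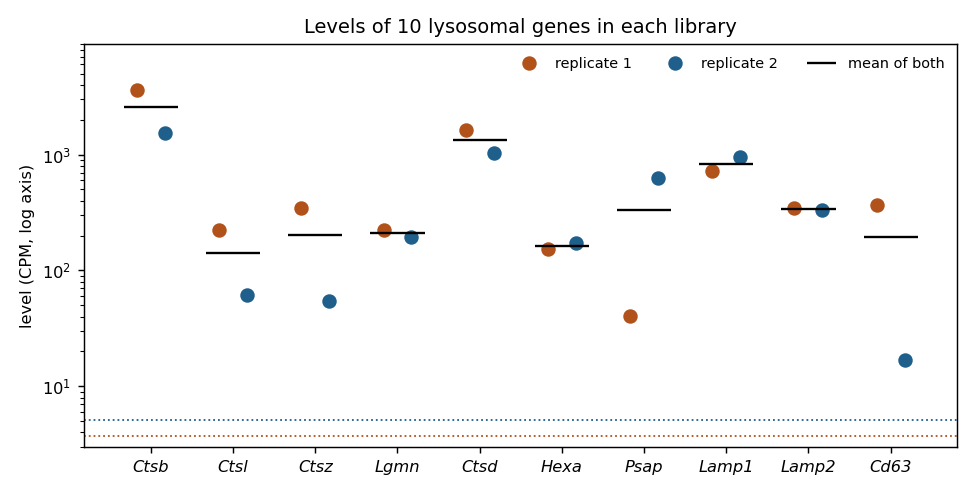
Level of each gene in CPM on a log axis, with a point for replicate 1 on the left, a point for replicate 2 on the right, and a line for the mean of both; dotted lines mark the 3.70 CPM (replicate 1) and 5.10 CPM (replicate 2) that 3 reads stand for. Lamp2, Lgmn and Hexa lie close together in both libraries, while Psap (40.7 and 628 CPM) and Cd63 (369 and 17.01 CPM) lie far apart in opposite directions.

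The libraries were then compared gene by gene, with the exact binomial test on reads scaled by the trimmed mean of M values (TMM) and Benjamini-Hochberg adjustment at 0.05 over 9809 genes. Log2 ratios are replicate 1 over replicate 2. Of the 10 genes, 7 were called with more reads in replicate 1 and 1, Psap, with more in replicate 2. Of all genes tested, 35.6% were called toward replicate 1 and 30.6% toward replicate 2. These include genes with far fewer reads than the 10. With at least 50 reads over both libraries, which all 10 genes had, 4705 genes were tested. Of these, 2134 were called toward replicate 1 and 1903 toward replicate 2, with a median log2 ratio of 0.17. The median log2 ratio was 0.90 for the 10 genes and 0.01 for all genes tested. In bulk tissue, fewer cells of a type and less RNA per cell cannot be told apart.

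Cd63 was 30.1-fold higher in replicate 1 (95% interval 16.1 to 63.4), with a model of 1063 nt, the shortest of the 10. Ctsz was 8.86-fold higher there (6.14 to 13.2; 1441 nt) and Ctsl 5.06-fold higher (3.52 to 7.45; 1971 nt). Ctsb, with the longest annotated model at 4743 nt, was 3.25-fold higher in replicate 1 (3.02 to 3.51). Ctsd was 2.19-fold higher (1.99 to 2.42; 2127 nt). Lgmn and Lamp2 had smaller differences toward replicate 1, at 1.60-fold (1.26 to 2.04; 1990 nt; adjusted p 0.000202, exact binomial test) and 1.46-fold (1.21 to 1.76; 1769 nt; adjusted p 0.000101, exact binomial test). Both lost their calls when total reads set the scale, with log2 ratios of 0.24 for Lgmn (adjusted p 0.198, exact binomial test) and 0.12 for Lamp2 (adjusted p 0.436, exact binomial test). Psap was 11.1-fold higher in replicate 2 (7.78 to 16.4; 2646 nt). Lamp1 (2229 nt) and Hexa (1996 nt) were not called: their log2 ratios were 0.07 (adjusted p 0.454) and 0.30 (adjusted p 0.168) by the exact binomial test. With total reads both turned negative. Lamp1, at -0.35, was then called toward replicate 2 (adjusted p 8.16e-05, exact binomial test), and Hexa, at -0.13, was not called (adjusted p 0.602, exact binomial test).

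The length of the transcript moved with these ratios. A lowess curve of the log2 ratio on model length, taken from the annotated model with most reads, lay at 3.64 for the length of Cd63, at 2.71 for Ctsz, at 0.24 for Lamp1 and at -0.74 for Psap. With the share of each gene set from that curve, 4 of the 10 genes were called toward replicate 1 and 3 toward replicate 2, against 21.1% and 21.3% of the 9173 genes tested, and the median log2 ratio was 0.13 for the 10 genes and -0.06 for all. Ctsb (2.89), Ctsl (1.32), Cd63 (1.20) and Ctsd (0.60) kept their calls toward replicate 1, and Psap (-2.71) kept its call toward replicate 2. Lamp2 turned toward replicate 2, at -1.13 (adjusted p 1.02e-14), and Hexa, at -0.63 (adjusted p 0.00425), was called there as well by the exact binomial test. Ctsz, at 0.42, Lgmn, at -0.27, and Lamp1, at -0.16, were not called. The length used for Lamp2 is that of its A form, although its longer B form had more reads in replicate 2.

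For Ctsb and Ctsl, most unannotated models with the last intron ended well before the annotated 3′ end. Such models held 107 of the 2915 reads of Ctsb in replicate 1 and 53 of 902 in replicate 2, and 3 of the 181 reads of Ctsl in replicate 1 and 4 of 36 in replicate 2. Among the unannotated models of Ctsb that hold the last intron, 29 of 29 in replicate 1 ended 2883 nt before the annotated 3′ end. In replicate 2, 12 of 22 ended 2790 nt before it, 6 ended 1173 nt before it and 4 ended at it. The ends are those of models, and the ends of reads assigned to annotated models were not analysed here. For Ctsl, 2 of 3 such models in replicate 1 ended 578 nt before the annotated end and 4 of 4 in replicate 2 ended 582 nt before it. With the lengths shortened by the median distance, to 1860 nt for Ctsb and 1389 nt for Ctsl, the length-adjusted log2 ratio of Ctsb was 0.33 (adjusted p 7.88e-09, exact binomial test) in place of 2.89. That of Ctsl was -0.54 (adjusted p 0.101, exact binomial test) in place of 1.32. The length at which they are placed thus moved both values by more than 1.5 on the log2 scale. It also turned the sign of Ctsl, which was no longer called.

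**Figure D2:**
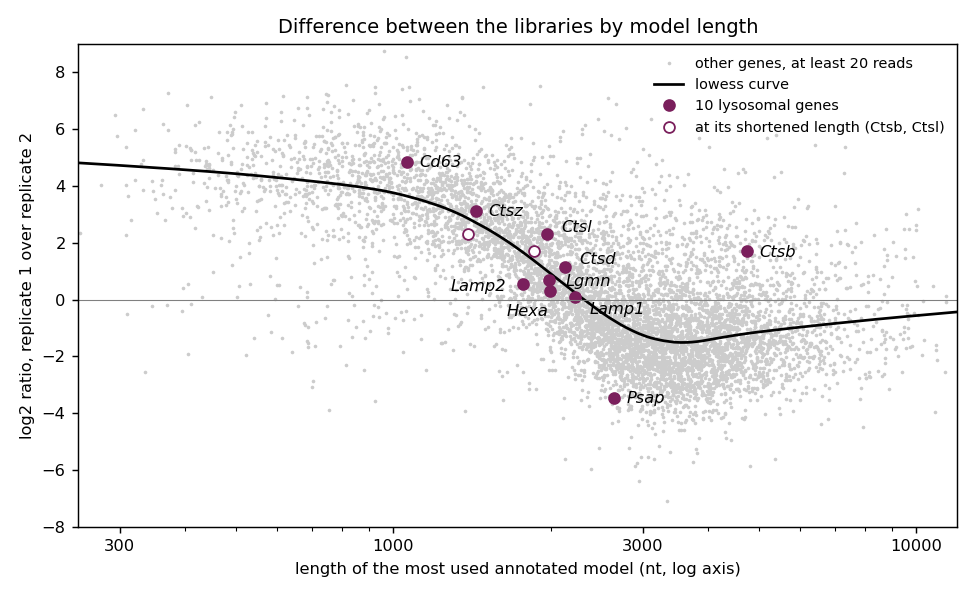
Log2 ratio of replicate 1 over replicate 2 against the length in nt of the annotated model with most reads on a log axis, for genes with at least 20 reads (grey), the 10 lysosomal genes (filled circles) and the lowess curve (line). Open circles place Ctsb at 1860 nt and Ctsl at 1389 nt; Ctsz lies near the curve and Cd63 above it, while Psap lies below it and Ctsb at its annotated 4743 nt lies far above it.

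Reads of other lysosomal genes were listed beside these. The length-adjusted values of all lists below use annotated model lengths, and no length was shortened as for Ctsb and Ctsl. Whether models of the listed genes end early was not tested, so their adjusted calls and medians depend on the annotated lengths. Of 37 tested genes for other hydrolases and their helpers, 12 were called toward replicate 1, 14 toward replicate 2 and 11 not at all, with a median log2 ratio of -0.43. After length adjustment, 12 of 36 were called toward replicate 1 and 8 toward replicate 2, with a median of 0.08. Highest by mean CPM were Gm2a, the GM2 activator that works with beta-hexosaminidase (675 and 267 reads in replicates 1 and 2), Lipa, the acid lipase that frees cholesterol (327 and 463), and Gaa, the acid alpha-glucosidase (60 and 544). Of 20 tested genes for other lysosomal membrane proteins, 7 lay toward replicate 1 and 6 toward replicate 2 past the threshold, led by Laptm4b (777 and 257 reads), Glmp (240 and 32) and Ostm1, the partner of the chloride transporter ClC-7 (25 and 89). Length-adjusted, the calls were 5 and 2 of 18. Of the 16 proton pump genes, 10 were called toward replicate 1 and 5 toward replicate 2, with a median log2 ratio of 1.99. In the length-adjusted test the calls were 5 and 4, and the median was 0.25. The pump subunits Atp6v1a, Atp6v0c and Atp6v1h had 71, 553 and 306 reads in replicate 1, against 439, 41 and 183 in replicate 2.

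Of 18 tested genes that sort or modify lysosomal proteins, 3 were called toward replicate 1 and 11 toward replicate 2. The median log2 ratio of this list was -1.10. With the length trend taken out, 2 of 17 were called toward replicate 1 and 8 toward replicate 2, with a median of -0.32. Highest by mean CPM were Vps35, a retromer subunit (47 and 589 reads in replicates 1 and 2), the mannose 6-phosphate receptor M6pr (205 and 253), and Sumf1, which activates sulfatases (42 and 189). The median model length was 3034 nt in this list and 2060 nt in the proton pump list. Among regulators of the lysosome, 7 of 14 were called toward replicate 1 and 2 toward replicate 2, led by Flcn (34 and 169 reads), Rheb (160 and 16) and Lamtor1 (115 and 16), which act in nutrient signalling at the lysosome. Adjusted for length, the balance turned, to 2 calls toward replicate 1 and 3 toward replicate 2, and the median log2 ratio was -0.11 in place of 1.354. All 3 tested cystatins were higher in replicate 1. They were the cathepsin inhibitors Cst3 (1163 and 37 reads) and Cstb (95 and 4), and Cst8 (24 and 1), and their median model length was 768 nt. With the length trend taken out only Cst3 was called, at a log2 ratio of 0.99, while Cstb had 0.12 and Cst8 had -0.05, and the median of the 3 was 0.12 in place of 4.42.

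Macrophages are rich in lysosomes, so their markers are given beside the members. Reads fell on 16 of 16 macrophage genes in replicate 1 and 15 of 16 in replicate 2, and their summed share was 0.173% and 0.0390%. Of 14 tested, 8 were called toward replicate 1 and 3 toward replicate 2. The short Lyz2 had 726 and 59 reads, the short C1qa had 133 and 7, and Ctss, the protease cathepsin S, which like Cd68 is also on a list above, had 163 and 12, while the long Csf1r had 16 and 48 and the long Adgre1 had 14 and 37. Tyrobp, an adaptor of myeloid receptors, had 19 reads in replicate 1 and was at 0 in replicate 2. With the length trend taken out, 2 of 13 were called toward replicate 1 and none toward replicate 2, with a median log2 ratio of 0.40. Markers of red blood cells moved as well. All 5 had reads in both libraries, with a summed share of 0.183% in replicate 1 and 0.0225% in replicate 2. Of these 5 genes, 4 were called toward replicate 1 and none toward replicate 2, and with the length trend taken out none toward replicate 1 and 3 toward replicate 2. The part of macrophages and of blood in the levels of the 10 genes was not tested.

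Isoform use was then compared, as the share of a gene's reads on its most used model against all its other models. A two-sided Fisher's exact test, adjusted by Benjamini-Hochberg over 4733 genes, called 5 of the 10 genes, and 28.7% of all genes tested. Lamp2 had by far the largest difference. Lamp2-201, the A form, took 220 of 282 reads in replicate 1 (78.0%, 95% Clopper-Pearson interval 72.7 to 82.7) and 48 of 194 in replicate 2 (24.7%, 18.8 to 31.4), with an adjusted p of 2.14e-29 by Fisher's exact test. Hexa-201, Ctsl-201 and Ctsb-201 also took larger shares in replicate 1. The values were 92.8% against 79.4% for Hexa (adjusted p 0.0221), 97.8% against 86.1% for Ctsl (adjusted p 0.0298) and 95.1% against 90.8% for Ctsb (adjusted p 5.96e-05), by Fisher's exact test. Lamp1-201 took a smaller share in replicate 1, 84.4% against 89.4% (adjusted p 0.0490, Fisher's exact test), and with multi-exon models alone it was not called (adjusted p 0.140). Ctsd-202 (90.9% and 93.9%), Ctsz-201 (96.5% and 87.5%), Lgmn-201 (87.3% and 84.2%), Cd63-201 (94.6% and 80.0%, of only 10 reads in replicate 2) and Psap-202 (66.7% and 79.1%) were not called.

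At the donor of exon 8, where the Lamp2 forms part, reads could be counted in all models that hold the junction. The A form, known from other work as the receptor of chaperone-mediated autophagy, was used by 236 of 277 reads in replicate 1 (85.2%, 80.5 to 89.2) and 53 of 191 in replicate 2 (27.7%, 21.5 to 34.7). The B form was used by 37 of 277 reads in replicate 1 (13.4%) and 135 of 191 in replicate 2 (70.7%). The C form had 3 reads in each. The order of the A and B forms was thus opposite in the libraries, with intervals that do not overlap, and the C form was the least used in both.

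The Lamp2 forms differ in length, with annotated models of 1769 nt for A, 3604 nt for B and 2184 nt for C. Scaled as above, the A form had a log2 ratio of 2.15 and the B form one of -1.85, a difference of 3.998 between the forms. The curve of all genes lay at 1.67 for the length of A and at -1.51 for that of B, a difference of 3.18. The direction of both forms was therefore that of other genes of such lengths. Form and length cannot be told apart here.

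**Figure D3:**
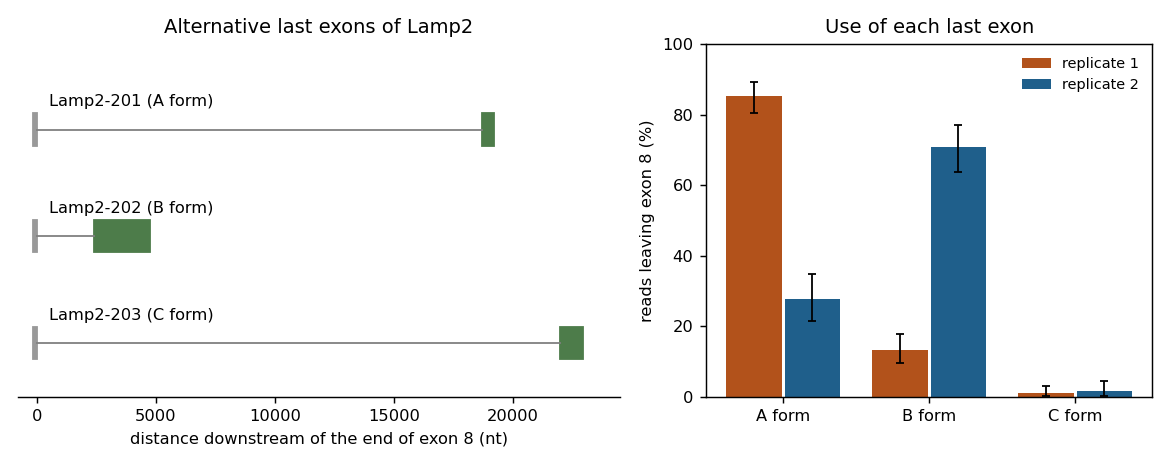
Left, the last exon of each Lamp2 form (green) at its distance in nt downstream of the end of exon 8 (grey). Right, the share of reads leaving exon 8 that joined each last exon, with 95% Clopper-Pearson intervals; the A form took 85.2% in replicate 1 and 27.7% in replicate 2, and the B form 13.4% and 70.7%.

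In smaller choices, where the forms differ by a few bases, the shares lay fewer percentage points apart than those of the Lamp2 last exons. Some rare forms still differed several-fold, on few reads and with overlapping intervals. In Lamp1, an acceptor 3 nt inside exon 2 had 1.29% in replicate 1 and 0.182% in replicate 2. A donor 5 nt after that of intron 4 had 0.362% and 1.46%. Psap has an annotated choice of acceptor that adds 6 bases to the transcript in Psap-201 relative to Psap-202, at chr10:60299092-60299097. The junction is shown with 15 bases of flank on each side, plus strand, with the added bases in capitals.
Psap-201: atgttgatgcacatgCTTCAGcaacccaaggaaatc
Psap-202: atgttgatgcacatgcaacccaaggaaatc

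The added bases are 2 codons long, and the annotated proteins have 556 residues in Psap-201 and 554 in Psap-202. The 6 bases were present in 2 of 27 reads in replicate 1 (7.41%, 0.910 to 24.3) and 28 of 359 in replicate 2 (7.80%, 5.25 to 11.1). The intervals overlap, and that of replicate 1 is wide because of its low depth on Psap. Psap-205, which has a 9-nt exon in this place, had 0 reads in both libraries, as did Psap-203 and Psap-204. A donor annotated only in Psap-204 was joined directly to the acceptor of Psap-202 in 0 of 25 reads in replicate 1 and 7 of 338 in replicate 2 (2.07%).

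An unannotated acceptor that skips 3 bases was used in the same gene and, at another place, in Lamp1. The skipped bases are in capitals, between 15 bases of the exon before and after the junction. For Psap they lie at chr10:60299464-60299466 and for Lamp1 at chr8:13165849-13165851, both on the plus strand.
Psap: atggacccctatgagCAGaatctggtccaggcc
Lamp1: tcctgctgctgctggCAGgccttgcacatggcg

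Both skipped triplets, and the 6 bases of Psap-201, end in AG, the bases with which introns end. In Psap, 3 of 27 reads in replicate 1 (11.1%, 2.35 to 29.2) and 21 of 366 in replicate 2 (5.74%, 3.59 to 8.64) lacked the triplet at the start of exon 9. In Lamp1, 7 of 543 reads in replicate 1 (1.29%) and 1 of 548 in replicate 2 (0.182%) lacked that at the start of exon 2. A second unannotated acceptor of Lamp1, 3 nt before the annotated one, was used by more reads: 28 of 543 in replicate 1 (5.16%, 3.45 to 7.37) and 26 of 548 in replicate 2 (4.74%, 3.12 to 6.87). Its share was thus the same in both libraries within counting error, and the model that carries it was the second most read of Lamp1. Exon 2 of Lamp1 was left out in 3 of 543 and 4 of 548 reads in replicates 1 and 2.

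In Hexa, the libraries differed in retained introns. Introns 9 and 10, of 269 and 498 nt, were read through in 12 of 99 reads (12.1%, 6.42 to 20.2) and 14 of 99 reads (14.1%, 7.95 to 22.6) in replicate 2. In replicate 1 they were read through in 0 of 121 and 0 of 122 reads, where a count of 0 has an upper bound of 3.003% and 2.98%. A model of 12 exons and 2763 nt that keeps both introns had 0 reads in replicate 1 and 8 in replicate 2, and the fully spliced Hexa-201 has 1996 nt. Replicate 2 is the library with more reads of long models, and the part of length in this difference was not tested. In Lgmn, intron 10 was retained in 0 of 172 reads in replicate 1 and 4 of 113 in replicate 2 (3.54%). In Cd63, intron 1 was retained in 9 of 295 reads in replicate 1 (3.05%) and 1 of 9 in replicate 2.

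**Figure D4:**
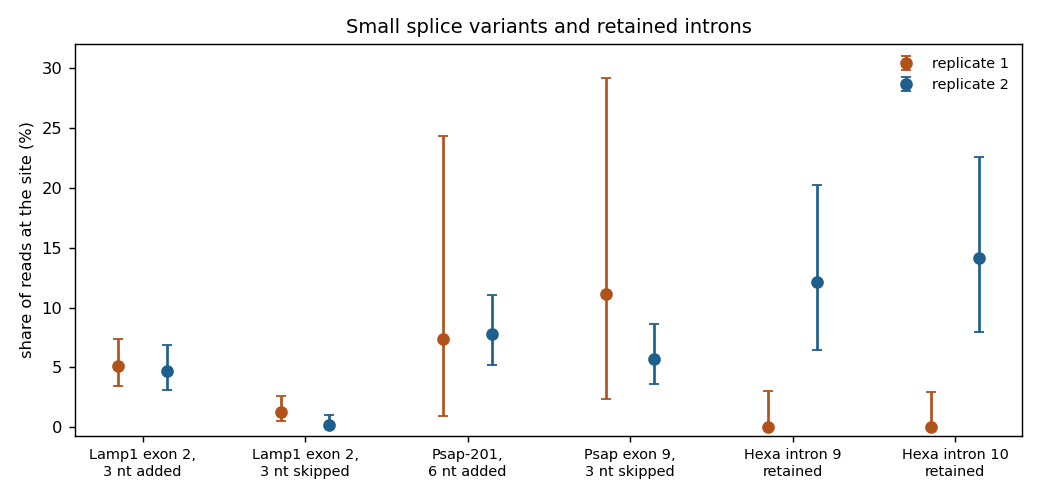
Share of reads at each site, in percent, that used the named variant in Lamp1, Psap and Hexa, with 95% Clopper-Pearson intervals; replicate 1 is on the left and replicate 2 on the right of each pair. The added 3 nt of Lamp1 (5.16% and 4.74%) and the added 6 nt of Psap (7.41% and 7.80%) lie at like levels, while the Hexa introns had no retained reads in replicate 1 and shares of 12.1% and 14.1% in replicate 2.

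Most reads of the 10 genes were on annotated models. These took 92.9% of their reads in replicate 1 and 90.0% in replicate 2, against 78.7% and 74.1% over all annotated genes. Incomplete matches, with part of the junctions of an annotated transcript, took 4.51% and 4.03% of the reads of the 10 genes, against 10.5% and 10.8% over all. Unspliced reads took 0.983% and 1.23%, against 9.82% and 5.80%. The values over all genes count every model of 1 exon, also annotated ones of genes without introns. The most used model of each of the 10 genes has introns, so part of this contrast lies in gene structure. New combinations of known splice sites took 0.209% and 1.37%, against 3.05% and 6.72%. Models with an unannotated splice site took 1.95% and 4.21%, close to the 2.59% and 5.25% of all genes in the same libraries. Lamp1 had 7.19% of its reads in replicate 1 (5.23 to 9.60) and 7.35% in replicate 2 (5.32 to 9.84) on such models, and Psap had 6.06% (0.743 to 20.2) and 6.78% (4.43 to 9.84). Their intervals overlap. Psap in replicate 1 had the lowest annotated share, 24 of 33 reads (72.7%, 54.5 to 86.7), and 3 of its 33 reads were unspliced.

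**Figure D5:**
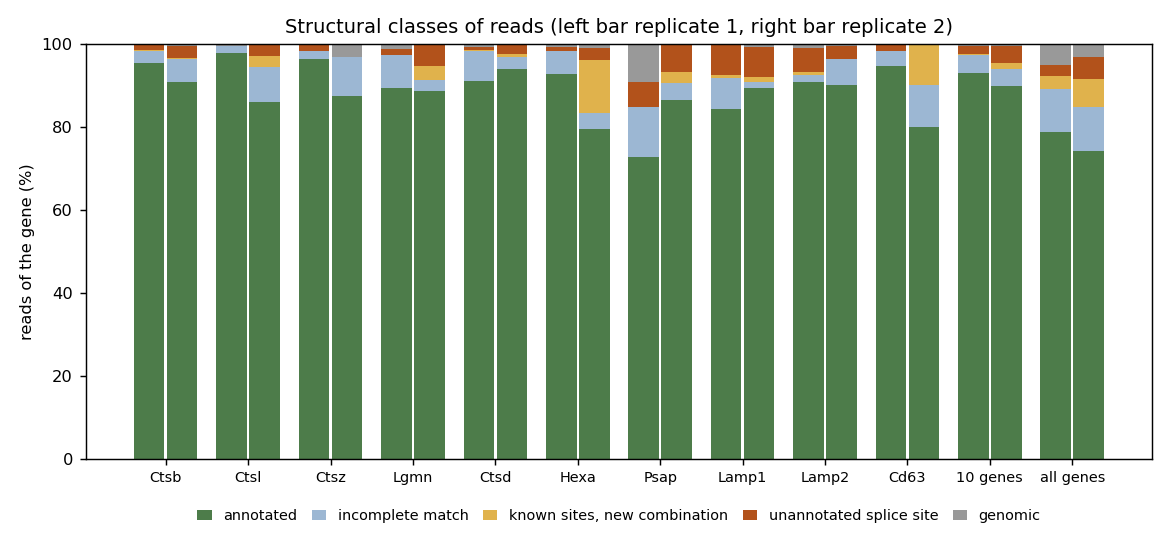
Share of the reads of each gene, in percent, in each structural class, with replicate 1 in the left bar and replicate 2 in the right bar of each pair; the last pair covers all annotated genes. Annotated models took 92.9% and 90.0% of the reads of the 10 genes, against 78.7% and 74.1% of all genes.

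Junctions were then counted. All 91 introns of the 10 most used annotated models were read in both libraries. Of 109 introns annotated in any model of the genes, 94 were read in both and 14 in neither. Of 36 annotated transcripts, 16 had reads in replicate 1 and 14 in replicate 2. A further 98 unannotated introns were found, of which 29 were read in both libraries and 62 lay within 10 nt of annotated sites. They made up 143 of 51425 intron reads in replicate 1 and 152 of 26433 in replicate 2. Of 199 unannotated spliced chains of junctions, 43 were found in both libraries. The same counts over all genes are not given here, so these shared introns and chains are not set against a background. Ctsb held 44 of the chains, of which 15 were shared, the most of any of the genes. Its unannotated donors 4 nt after the annotated ones recurred at 4 introns, in 3 to 8 reads in replicate 1 and 2 to 4 in replicate 2. Each held at most 0.460% of the reads at its acceptor in a library. Donors at this offset were also read in each of the other genes, as in Lamp2 at intron 6 (7 reads in replicate 1 and 1 in replicate 2).

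Most reads spanned the genes from the first intron to the last donor. Of the reads with the last donor, the share that also held the first intron was 96.9% in replicate 1 and 95.3% in replicate 2 for Ctsb, 92.4% and 96.8% for Ctsd, and 87.7% (84.8 to 90.3) and 93.3% (90.9 to 95.2) for Lamp1. Over the 10 genes the share ran between 87.7% and 98.3% in replicate 1. In replicate 2 it ran between 80.0%, for the 10 reads of Cd63, and 96.8%.

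Promoters were searched for CACGTG, the core of the element bound by TFEB and related regulators of lysosomal genes. The sequence reads the same on both strands. RefSeq promoter windows (GRCm38.p6, 250 bases before to 50 after the start) were at hand for 9 of the 10 genes, in 11 windows. The motif was in 4 of 11 windows (36.4%), against 7.15% of 32851 windows of the same length. Lamp1 had 4 copies in 1 window, a number reached in 8 of all windows, Ctsd had 2, and Ctsl and 1 of 2 windows of Lgmn had 1 each. The longer TCACGTGA was in the window of Ctsd alone among these, and in 0.974% of all windows. No test was made of these shares, and a match describes the sequence and not binding.

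Some genes lie over others. Gm49369 shares 6757 nt and the strand of Ctsd and had 0 reads in both libraries, as did Gm49230 and Gm47123 over Ctsl. On the opposite strand, Fdft1 overlaps Ctsb by 774 nt (20 and 13 reads in replicates 1 and 2), Nelfcd overlaps Ctsz by 10 nt (56 and 134 reads), Grtp1 overlaps Lamp1 by 3317 nt (12 and 4 reads) and Tmem202 overlaps Hexa by 308 nt (4 and 3 reads). Each of these had fewer reads than the member it overlaps in both libraries, except Nelfcd in replicate 2.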

How the data were processed

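Total RNA of the adrenal gland was read by long-read RNA-seq in 2 libraries of 1 group. The authors deposited a table of raw counts for each library, 1 row for each transcript model with at least 1 read. Per the file headers and sample notes, the models were built separately in each library against GENCODE M21 (mm10) and carry the classes of TALON, a program that assigns long reads to annotated or unannotated transcripts. For the aligner and the platform, the sources used here give no name. The deposited exon coordinates gave each model its chain of junctions; annotated models were matched by identifier and spliced unannotated ones by chain, and the unspliced ones were pooled within a gene.

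Counts of the models of a gene were summed, and CPM taken over all reads of a library. The exact two-sided binomial test used raw counts, TMM-scaled library sizes (edgeR 4.0.16) and genes with at least 10 reads over both libraries. It has no replicate check and was tested on simulated data. A pseudocount of 0.5 reads entered the log2 ratios alone. The length curve was a lowess with span 0.3 over genes with at least 20 reads (statsmodels 0.14.6). Fisher's exact test of isoform use took genes that had 10 reads or more in both libraries (scipy 1.17.1). Intervals are 95% Clopper-Pearson. They and the floors hold for counting error alone, because amplified reads are not independent molecules. The alternatives were DESeq2 1.42.0 size factors, total reads, other filters on low counts, annotated or multi-exon models alone, and single replicates.

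The genes and lists were chosen with earlier results of these data known. All 10 genes are named. The 3 genes of highest mean CPM are named for each other lysosomal list, the cystatins and the macrophage markers. Of the macrophage markers, Csf1r, Adgre1 and Tyrobp were chosen after their values were seen. No gene of the cortex, medulla or red blood cell lists is named. Models are named with at least 5% of a gene's reads in either library or at least 10 reads over both, and a few smaller splice forms were added after their values were seen. Sequences come from GENCODE M21 transcripts.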

Additional observations from a re-analysis of the deposited data

Results flagged for a closer look

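Reads on models antisense to a gene were not used in any comparison above. Over Ctsb they numbered 6 in replicate 1 and 5 in replicate 2, and over Psap 16 in replicate 1 and 12 in replicate 2, above the 3 reads that a count of 0 allows. All of these models were unspliced. For Psap in replicate 1 they compare with 33 reads on the gene itself. The other 8 genes had at most 2 such reads in a library.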

How the results depend on the processing

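No paired analysis was possible because the replicates belong to 1 group. The number of members called ran from 6 to 9 over all settings, and scaling by total reads moved the median of all genes to -0.42 on the log2 scale, in place of 0.01. With total reads, Lamp1 turned to -0.35 (adjusted p 8.16e-05), and Lamp2 (0.12) and Lgmn (0.24) lost their calls. With the length trend taken out, Lamp2 (-1.13), Lgmn (-0.27) and Hexa (-0.63) turned, as did Lamp1 (-0.16), which was not called before or after. Lgmn and Ctsz (0.42) lost their calls. With shortened lengths, an alternative chosen after seeing the data, these values were the same and Ctsl turned as well (-0.54). With annotated models only, Hexa was called at 0.58. Genes differing between the libraries numbered 6497, or 4037 with at least 50 reads over both (fewer genes tested), 3889 with the length trend taken out and 3888 with shortened lengths. Genes differing in isoform use numbered 1359, or 723 with multi-exon models only. Among the 10 genes 4 or 5 were called under each isoform setting; without single-read models Ctsd was called (adjusted p 0.00392, Fisher's exact test) and Ctsl was not tested. The share of reads on the 10 genes was 0.498% to 0.766% when either replicate was left out. Depth limits Psap in replicate 1 (33 reads) and Cd63 in replicate 2 (10 reads), where shares have wide intervals.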
